A study of Homo sapiens with 12 samples.

Results

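Peaks of hnRNPK at the 3' ends of protein-coding genes were examined in 6 ChIP-seq peak lists from the HCT116 line, which was established from a human colorectal carcinoma. A peak, an interval with more immunoprecipitated reads than its input, was taken as a 3' end peak when its midpoint lay within 1 kb of the 3' end of a GENCODE protein-coding gene record and not within 1 kb of the 5' end of any gene record. Of 16214 peaks on chromosomes 1 to 22, X and Y, 347 met this rule. The gene with the nearest 3' end was called the host gene, and a midpoint beyond that end was called past the gene end.

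All cells overexpressed hnRNPK. They carried in addition a construct for the long noncoding RNA CRLM1 (CRLM1-OE), an empty control or an antisense control, with 2 immunoprecipitated libraries per group that the series describes as biological replicates. Each library had its own peak list, called over the input library with matching group and number. No list came from cells with hnRNPK at its own level. Peak lists hold no expression values, so the cell line could not be checked by its markers, and the read depth behind each list is unknown.

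hnRNPK is a protein of the nucleus and cytoplasm with KH domains that bind C-rich RNA and C-rich single-stranded DNA. The study reported more of it in the nucleus, and less in the cytoplasm, with CRLM1 overexpression than in control cells. At the 3' end of a gene, the transcript is cut downstream of a poly(A) signal, a tail is added, and the exonuclease XRN2 degrades the remaining RNA behind the polymerase before it leaves the template. hnRNPK has been described at gene 3' ends before, among others at the immediate-early gene EGR1, where it was linked to XRN2 and termination.

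Among the 322 merged regions that held a 3' end peak, 19 were 3' end peaks in more than 1 list, and the genes at these regions are described here as recurrent. The most C-rich stretch of 30 bases on the gene strand is shown for 10 of them, taken by number of lists and then by score rank with PLEC left out, because C-rich single strands are the known ligand of the protein. Each was read from GRCh38 within the best-ranked peak of that gene, 5' to 3' on the gene strand, with runs of 3 or more C in capitals.
GH1: catCCCtgtgaCCCCtCCCCagtgcctctc
ATF4: taaccgagtgaagcgccaCCCaCCCaCCCC
IER2: CCCCtCCCgCCCaaCCCacaCCCCCtttcc
HCFC1R1: aCCCacggccgccgCCCCgCCCCCgCCCCC
TRIM41: gtCCCaCCCCCtgCCCggtCCCCttcctcc
EIF4A2: tacactctgccaactggCCCCCgtgCCCCC
HSPA5: tcacaccactgtactccagCCCggcactcc
LONP1: CCCggCCCtgactCCCatCCCaCCCCgCCC
NR1D1: ccacaaCCCCCCtCCCCCCagCCCagcacc
RPS19: cctgcaatCCCgcagccgcgccgctccagc

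The stretch of GH1 lay at chr17:63917267-63917296 on the minus strand, 82 bases inside the gene end. That of ATF4 lay at chr22:39522718-39522747 on the plus strand, 50 bases past the end. The stretch of IER2 lay at chr19:13155808-13155837 on the plus strand, 912 bases past the end. These distances show that the C-rich stretches took no fixed place relative to the end. In the wide peaks of HCFC1R1 and TRIM41 they lay outside the 1 kb zone. For HCFC1R1 the stretch was at chr16:3020317-3020346 on the minus strand, 2293 bases past the end, and for TRIM41 at chr5:181233604-181233633 on the plus strand, 2189 bases inside it. For EIF4A2 the stretch was at chr3:186790458-186790487 on the plus strand, 576 bases past the end, and for HSPA5 at chr9:125235255-125235284 on the minus strand, 417 bases inside it. For LONP1 it was at chr19:5691477-5691506 on the minus strand, 342 bases past the end, for NR1D1 at chr17:40092369-40092398 on the minus strand, 409 bases past it, and for RPS19 at chr19:41873296-41873325 on the plus strand, 386 bases past it. The number of C in the 30 bases ranged from 15 in ATF4 and HSPA5 to 22 in HCFC1R1. The same peaks held stretches just as rich in C on the other strand, with between 15 and 22 of 30 bases, so the richness was not particular to the transcribed strand in these peaks. Each stretch was rich in C by selection, and a wide peak offers more stretches to select from. In the central 300 bases of all 347 peaks, the richest stretch on the gene strand had a median of 14 C. In 300 bases around the ends of 17704 protein-coding genes away from gene starts it had 12.

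To determine how many hnRNPK peaks lay at gene ends, the share of 3' end peaks was taken in each list. In CRLM1-OE replicate 1, 92 of 4339 peaks were 3' end peaks, or 2.12% (95% Wilson interval 1.73 to 2.59). In CRLM1-OE replicate 2 there were 108 of 3163, or 3.41% (2.84 to 4.11). The empty control lists held 20 of 1619, or 1.24% (0.801 to 1.90), and 43 of 2607, or 1.65% (1.23 to 2.21). The CRLM1-OE lists thus held the most 3' end peaks and the largest shares. The antisense control lists held 44 of 2262, or 1.95% (1.45 to 2.60), and 40 of 2224, or 1.799% (1.32 to 2.44). The intervals cover counting error only, since neighbouring peaks are not independent.

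**Figure D1:**
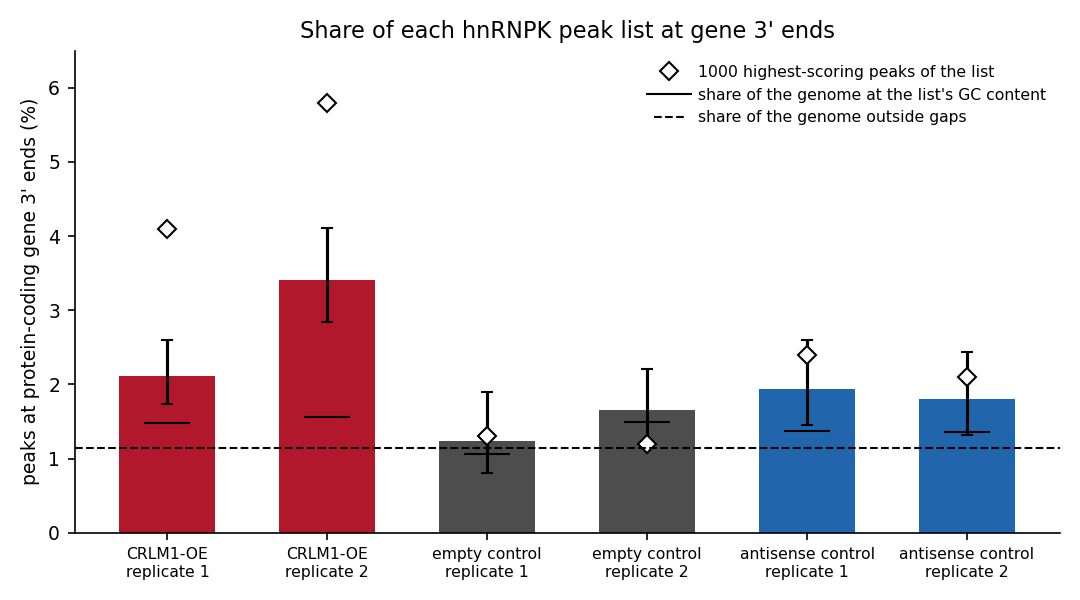
Share of peaks at protein-coding gene 3' ends in each list (y axis, percent; bars with 95% Wilson intervals), in the 1000 highest-scoring peaks (diamonds), and the share of the genome in the same zone (dashed line) or at the list's GC content (short lines). The bars of CRLM1-OE stand at 2.12% and 3.41%, and those of the 4 control lists between 1.24% and 1.95%, with the dashed line at 1.14%.

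The zone covered 1.14% of the genome outside assembly gaps, and the share of peaks was between 1.08 and 2.99 times that value. It lay above the genomic share in 6 of 6 lists, by 0.887 percentage points on average (SD 0.743, n = 6 lists; exact sign-flip permutation test, two-sided, p = 0.03125, the smallest that 6 lists can give). After Benjamini-Hochberg adjustment over the 5 tests of this kind the p-value was 0.0781, so the excess did not pass 0.05. GC content moved with it. Against a genomic share standardised to the GC content of each list's peaks, the mean excess was 0.636 points, and the ratio was 1.43 and 2.19 in the CRLM1-OE lists, 1.16 and 1.10 in the empty control lists, and 1.41 and 1.32 in the antisense control lists. With a zone of 2 kb, or with every peak left out that had any base within 1 kb of a gene 5' end, the share was no longer above the genome in all lists (p = 0.0625 in the exact permutation test for each).

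The excess was not sharply placed at the gene end. Within 1 kb of an end, on both sides together, peaks away from gene starts were 1.86 and 2.99 times as frequent as genomic bases in the CRLM1-OE lists, and between 1 and 2 kb the ratio was 2.10 and 2.62. Between 5 and 10 kb it was 1.20 and 1.25. In the antisense control lists the ratio was 1.71 and 1.58 within 1 kb, 1.79 and 1.78 between 1 and 2 kb, and 1.19 and 1.22 between 5 and 10 kb. In the empty control, replicate 2 went from 1.45 within 1 kb to 1.73 between 1 and 2 kb and 1.19 between 5 and 10 kb, whereas replicate 1 stood at 1.08, 0.796 and 1.01. The ratio therefore extended past the 1 kb limit of the rule and came down beyond 2 kb in the lists other than empty control replicate 1. Near that limit, the 6 lists held 45 peaks with a midpoint in the last 100 bp inside it and 42 in the first 100 bp outside it.

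**Figure D2:**
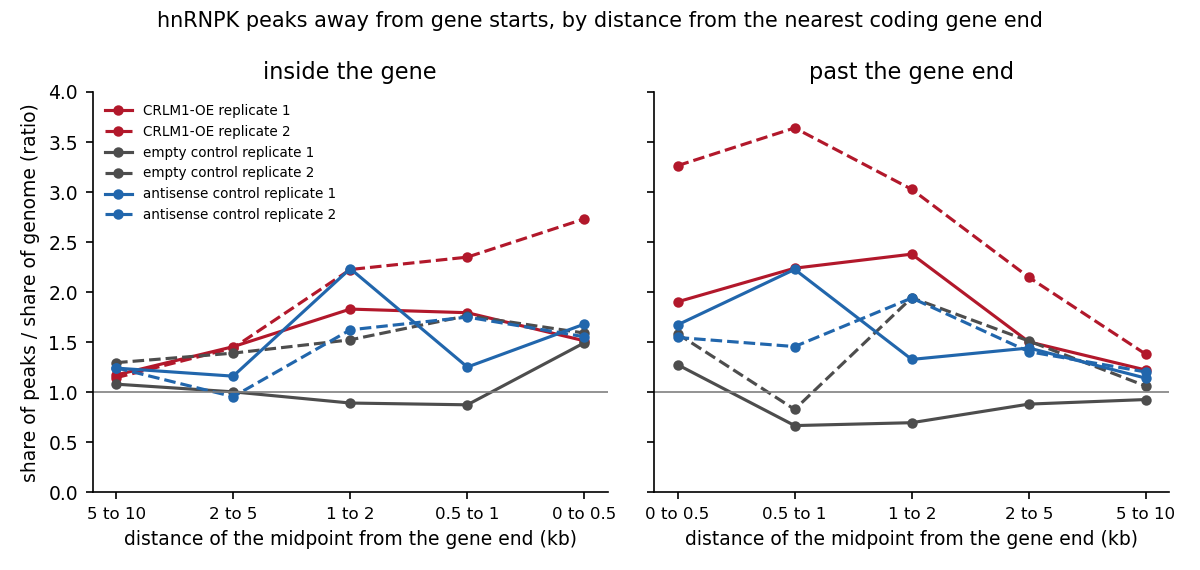
Share of peaks divided by the share of the genome (y axis, ratio; 1 marks equal shares) for peaks away from gene starts, by distance of the midpoint from the nearest protein-coding gene end (x axis, kb), inside the gene (left) and past its end (right), 1 line per list. CRLM1-OE replicate 2 is the highest line past the gene end, with 3.64 between 0.5 and 1 kb, and the 6 lines lie between 0.927 and 1.38 at 5 to 10 kb past the end.

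The question of the study was how CRLM1 alters the association of hnRNPK with chromatin, and for gene ends this is the difference in share between groups. The mean share was 2.77% ± 0.915 in CRLM1-OE. It was 1.44% ± 0.293 in the empty control, and the antisense control had 1.87% ± 0.104 (SD, n = 2 lists each). CRLM1-OE exceeded the empty control by 1.33 points, more than the combined SD of 0.961, and the lists of the groups did not overlap (exact permutation test, p = 0.333). It exceeded the antisense control by 0.896 points, within the combined SD of 0.921, again without overlap (exact permutation test, p = 0.333). Against the 4 control lists together, the difference was 1.11 points (exact permutation test, p = 0.133). These are the smallest p-values that 2 lists against 2, and 2 against 4, can give, so no comparison of groups could reach 0.05. The antisense control was 0.430 points above the empty control (combined SD 0.311, exact permutation test, p = 0.333). With a zone of 500 bp this difference was 0.0742 points (exact permutation test, p = 0.667), so whether the control groups differ was not settled.

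A single list carried much of the group difference. Without CRLM1-OE replicate 2 the difference from the 4 control lists was 0.463 points, and without CRLM1-OE replicate 1 it was 1.76. Peak width also differed between libraries across the groups. Between the lists with narrow peaks, CRLM1-OE replicate 1 and empty control replicate 2, the difference was 0.471 points. Between CRLM1-OE replicate 2 and the control lists with wide peaks it was 2.18 (empty control replicate 1), 1.47 and 1.62 (antisense control replicates 1 and 2). The part of peak width and depth in the difference was not tested.

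The difference was also taken among strong peaks, by score, the authors' value for each peak. Among the peaks above the median score of their own list, the share was 2.63% and 5.00% in CRLM1-OE and between 1.36% and 2.30% in the controls, a difference of 2.00 points (exact permutation test, p = 0.133). A fixed number of peaks is a larger part of a short list than of a long one, so the next values compare lists at unlike score depths. Of the 1000 peaks with the highest score in a list, 4.10% and 5.80% were 3' end peaks in the CRLM1-OE lists, 1.30% and 1.20% in those of the empty control and 2.40% and 2.10% in those of the antisense control. CRLM1-OE was 3.20 points above the 4 control lists in this subset (exact permutation test, p = 0.133). In CRLM1-OE, 30.4% and 28.7% of the 3' end peaks were among the highest-scoring 10% of their list, against 8.31% and 6.11% of the other peaks away from gene starts. Peaks at protein-coding gene starts had 22.2% and 25.7% in the same lists. For 3' end peaks of the control lists the share was 10.0% and 4.65% (empty control) and 20.5% and 12.5% (antisense control). High ranks were therefore not a feature of 3' end peaks in the empty control. Gene-start peaks had 4.76% and 8.60% in the empty control and 25.2% and 21.4% in the antisense control. High ranks were thus not particular to gene ends.

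The position within the zone was examined next. Over all lists, 184 midpoints lay past the gene end, 112 in the 3' UTR, 31 in an intron and 20 in coding sequence of the host gene. The peak itself reached across the annotated end in 153 cases, or 44.1%. Of the 184 peaks past the end, 130 lay in no other gene record, and 38 lay inside a gene on the opposite strand. Gene ends lie close together at some of these places, since 34 peaks also had the end of a convergent gene within the zone.

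The side of the gene end was even. Peaks past the end made up 55.4% and 57.4% of the 3' end peaks in the CRLM1-OE lists, 45.0% and 41.9% in those of the empty control and 56.8% and 47.5% in those of the antisense control, against 49.9% of the genomic bases of the zone. The mean difference from the genome was 0.817 points (SD 6.72; exact sign-flip permutation test, p = 0.8125), with 3 of 6 lists above it, and its sign changed when other annotated ends were used or GH1 was left out. CRLM1-OE was 8.63 points above the 4 control lists, and the groups overlapped (exact permutation test, p = 0.267). Among the 1000 highest-scoring peaks the share past the end was 70.7% and 67.2% in the CRLM1-OE lists, 46.2% and 41.7% in those of the empty control and 58.3% and 57.1% in those of the antisense control. This difference of 18.2 points was without overlap (exact permutation test, p = 0.133), though it rested on only 12 to 58 peaks per list. Among the peaks above the median score of their list it was 12.6 points (exact permutation test, p = 0.133).

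Peaks at gene ends were richer in G and C than other peaks. The median GC content was 54.1% and 50.8% in the CRLM1-OE lists against 42.3% and 40.4% for the other peaks away from gene starts. It was 45.3% and 52.1% against 37.2% and 43.3% in the empty control, and 52.6% and 51.7% against 39.7% and 40.1% in the antisense control. The mean difference was 10.6 points (SD 1.85) and was positive in 6 of 6 lists (exact sign-flip permutation test, p = 0.03125, adjusted p = 0.0781). Peaks at the starts of protein-coding genes were higher still, with medians from 60.7% to 67.2%.

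**Figure D3:**
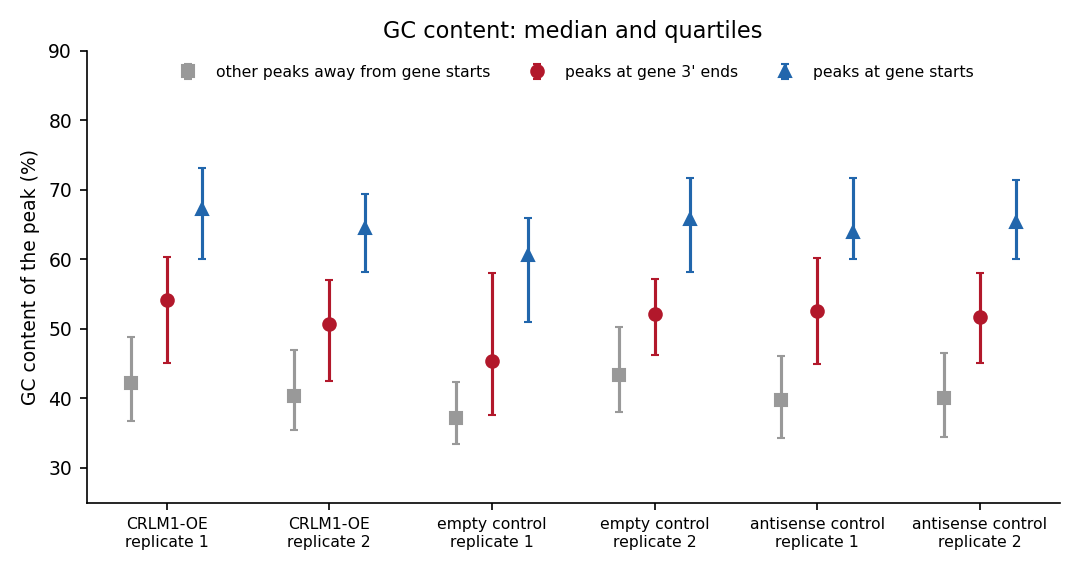
GC content of peaks (y axis, percent; points are medians and bars the quartiles) in each list, for peaks at gene 3' ends (circles), other peaks away from gene starts (squares) and peaks at protein-coding gene starts (triangles). In every list the circle lies between the square and the triangle, with medians of 45.3% to 54.1% at gene ends.

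The C-rich motif of hnRNPK was counted in the central 300 bases of each 3' end peak. CCCC was present on the gene strand in 68.3% of the 347 peaks and on the opposite strand also in 68.3%. In windows of the same length at the same distances from the ends of 17703 protein-coding genes without a gene start nearby, it was present in 53.8% and 54.0%. CCCC was thus more frequent in the peaks than at gene ends in general, on either strand alike, and the peaks were also higher in GC than these windows (median 51.7% against 44.5%). TCCC, which can overlap CCCC, was found in 80.4% of the peaks on each strand, against 72.8% and 72.9%. The poly(A) signal AATAAA was found on the gene strand in 17.6% of the peaks, against 24.1% of the windows at matched distances. A match is a description of the letters only, and motif shares follow base composition.

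No preference for C over G on the transcribed strand was detected. The excess of C over G in 3' end peaks differed from that of all protein-coding gene ends by 0.170 percentage points (SD 1.38; exact sign-flip permutation test, p = 0.78125), and 4 of 6 lists were positive.

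Recurrence between lists was examined over merged regions. Of the 322 regions with a 3' end peak, 29 carried peaks of any kind from more than 1 list, which is 9.01% (95% Wilson interval 6.34 to 12.6), beside 2.92% of all 15464 merged regions. The share was 1.96% for regions with neither a 3' end nor a gene start peak and 11.4% for regions with a peak near a gene start. Both CRLM1-OE lists but none of the controls had a peak at 13 of the 322 regions, or 4.04% (2.37 to 6.78), beside 0.53% of all regions. For regions with a peak near a gene start this share was 3.29% (2.47 to 4.36), and for regions with neither it was 0.175%. The pattern was thus not particular to gene ends. A region entered its class through any 1 of its peaks, so a region with peaks from several lists had more chances to enter. These shares therefore lean toward recurrence. With a peak that met the 3' end rule required in each list, 19 regions recurred in place of 29. In both CRLM1-OE lists without a control peak there were 9 in place of 13. GC content, score and width also differed between these classes of region, and their part in the recurrence was not tested.

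At the level of genes, 319 protein-coding genes hosted a 3' end peak, 1.59% of the 20033 on these chromosomes, and 19 did so in more than 1 list. In both replicates of CRLM1-OE, 11 host genes were shared, which is 12.2% of the 90 hosts of replicate 1 and 10.3% of the 107 hosts of replicate 2. The empty control replicates shared 1 of 20 and 43 hosts, and the antisense control replicates shared 2 of 43 and 40. Most 3' end peaks were therefore seen in a single library, also within a group. The number of shared hosts also follows the length of the lists, which was largest for CRLM1-OE.

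**Figure D4:**
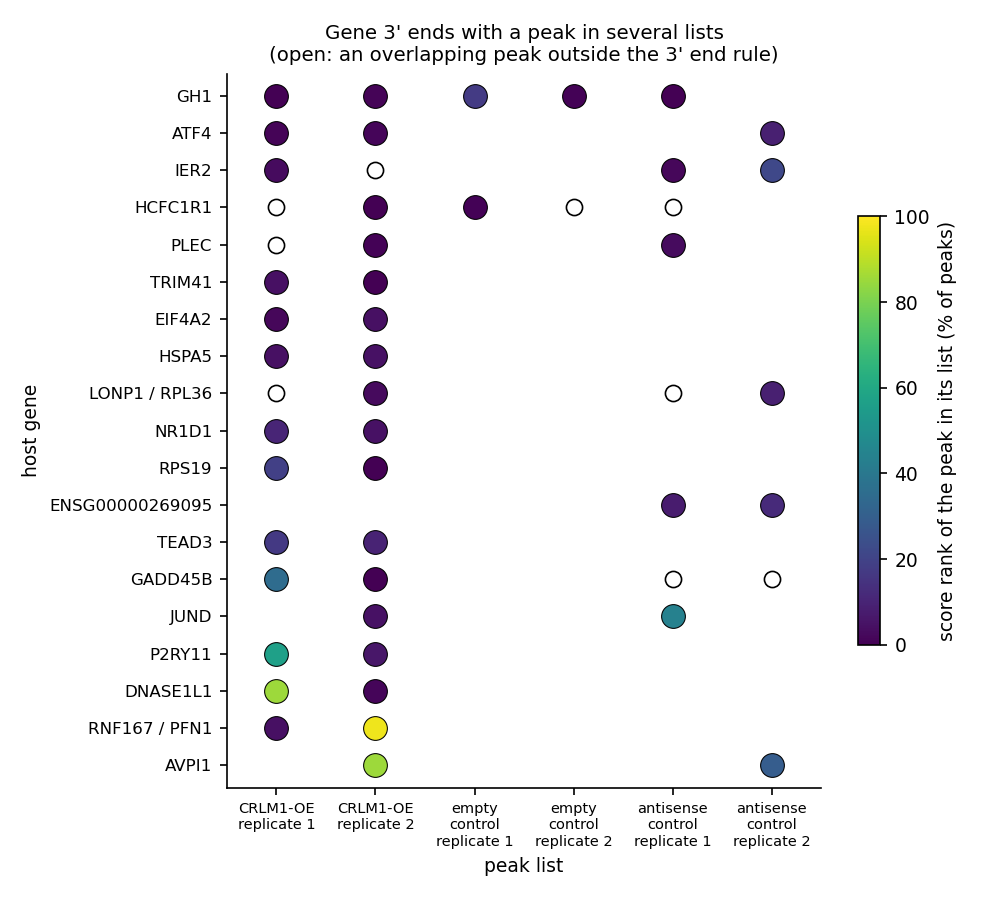
Regions with a 3' end peak in more than 1 list, by their host genes (rows), and peak list (columns); the colour gives the score rank of the peak in its list as a percent of the peaks (0 is the highest score), and open circles mark an overlapping peak that did not meet the 3' end rule. GH1 is filled in 5 lists, ATF4 and IER2 in 3 each, and 9 rows have a filled circle in both CRLM1-OE lists and no filled or open circle in a control list.

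GH1, the growth hormone gene of the pituitary, had the most recurrent peak. The gene lies at chr17:63917200-63918839 on the minus strand. In CRLM1-OE replicate 1 its peak had the highest score of all 4339 peaks, and in CRLM1-OE replicate 2 it ranked 32 of 3163. It ranked 282 of 1619 and 15 of 2607 in the empty control and 3 of 2262 in antisense control replicate 1, and antisense control replicate 2 had no peak there. The peak was thus present in every group but not in every library.

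The 5 GH1 peaks shared 504 bases, chr17:63916705-63917208, which began past the gene end and took in the last few bases of the gene. They ran between 9 and 201 bp into the gene and between 495 and 708 bp past its end. The last bases of GH1 hold its poly(A) signal, shown in capitals at chr17:63917200-63917229 because the peaks meet the gene there.
GH1 poly(A) signal: ttgtcctAATAAAattaagttgcatcattt

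The related genes GH2, CSH1, CSH2 and CSHL1 of the same cluster had no 3' end peak in any list, and each list with the GH1 peak had no other peak in the cluster. The end of GH2 was 92.6% identical to the shared bases over 503 aligned bases, so reads could be placed between these genes with some uncertainty. The 3' end of a growth hormone gene is also a source of the poly(A) segment in many expression vectors, and the cells carried expression constructs. The study names its plasmids for hnRNPK and CRLM1 but does not state which poly(A) segment they hold. The part of such a segment in the GH1 peak was not tested. Without the GH1 end, the mean excess over the genomic share was 0.854 points and CRLM1-OE stood 1.12 points above the control lists.

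ATF4 and IER2 were next by number of lists. ATF4, the transcription factor of the integrated stress response, had a 3' end peak in CRLM1-OE replicate 1 (rank 34 of 4339, midpoint 509 bp past the end), CRLM1-OE replicate 2 (rank 41 of 3163, 855 bp) and antisense control replicate 2 (rank 196 of 2224, 518 bp). All these peaks reached across the ATF4 end and past it. IER2, an immediate-early gene, had one in CRLM1-OE replicate 1 (rank 121 of 4339, 772 bp past the end) and in the antisense control (rank 43 of 2262, 619 bp, and rank 480 of 2224, 819 bp). CRLM1-OE replicate 2 had an overlapping peak at IER2 that did not meet the rule, and the empty control lists had none. GADD45B, a stress-response gene counted among p53 targets, ranked 6 of 3163 in CRLM1-OE replicate 2 (855 bp past the end) and 1511 of 4339 in CRLM1-OE replicate 1 (22 bp inside it). Overlapping peaks outside the rule were present at GADD45B in both antisense control lists.

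Regions with a 3' end peak in each of the CRLM1-OE lists, and without any overlapping control peak, numbered 9. TRIM41, a ubiquitin ligase gene, ranked 185 of 4339 and 12 of 3163, and EIF4A2, a translation initiation helicase gene, ranked 71 of 4339 and 129 of 3163. HSPA5, the gene of the endoplasmic reticulum chaperone BiP, ranked 174 of 4339 and 144 of 3163. These peaks were high in both lists. NR1D1, which encodes the clock repressor REV-ERB alpha, ranked 444 of 4339 and 139 of 3163 with midpoints 678 and 686 bp past the end. RPS19, a gene of the small ribosomal subunit, ranked 823 of 4339 and 10 of 3163. TEAD3 ranked 728 of 4339 and 300 of 3163. P2RY11, DNASE1L1 and the region of the convergent genes RNF167 and PFN1 were high in one list and low in the other. RNF167 was the host in replicate 1 and PFN1 in replicate 2. DNASE1L1 for example ranked 38 of 3163 in CRLM1-OE replicate 2 and 3702 of 4339 in replicate 1. The 0.53% of all regions given above counts peaks of any kind in both lists. Counted in that way, the regions with a 3' end peak numbered 13, so the 9 have no matched share. The control lists also held fewer peaks.

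The remaining recurrent regions had 3' end peaks in a CRLM1-OE list and a control list or in the antisense control alone. HCFC1R1, a small gene named in the study, had a peak of 5417 bp at rank 3 of 3163 in CRLM1-OE replicate 2 and one of 3066 bp at rank 7 of 1619 in empty control replicate 1. Both covered the 5' end of a gene record as well, so they are 3' end peaks by midpoint only. CRLM1-OE replicate 1, antisense control replicate 1 and empty control replicate 2 had overlapping peaks there that did not meet the rule. PLEC, the gene of a cytoskeletal linker, ranked 15 of 3163 in CRLM1-OE replicate 2 and 62 of 2262 in antisense control replicate 1. An overlapping peak outside the rule was present at PLEC in CRLM1-OE replicate 1. JUND, AVPI1 and the overlapping ends of LONP1 and RPL36 each had 3' end peaks in CRLM1-OE replicate 2 and 1 antisense control list. At LONP1 and RPL36, CRLM1-OE replicate 1 and antisense control replicate 1 had overlapping peaks outside the rule. The coding gene record ENSG00000269095, which has no symbol, was called in both antisense control lists (rank 174 of 2262 and 264 of 2224). DGCR2 and RNF225 were hosts in more than 1 list through separate peaks that did not overlap. DGCR2 ranked 2304 of 2607 in empty control replicate 2 and 2099 of 2262 in antisense control replicate 1, and RNF225 ranked 635 of 1619 in empty control replicate 1 and 352 of 3163 in CRLM1-OE replicate 2.

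The strongest 3' end peaks of the control lists included genes that were hosts in no other list. In the empty control these were COL14A1 (rank 112 of 1619) and PRR5 (rank 192 of 1619) in replicate 1, and STXBP6 (rank 237 of 2607) and KRT74 (rank 284 of 2607) in replicate 2. In antisense control replicate 2 they were ODAD4 (rank 52 of 2224), the record ENSG00000258052 (rank 83) and PRR7 (rank 173). Beside GH1, HCFC1R1, IER2 and PLEC, the best-ranked 3' end peaks of the controls were thus not shared with another list at COL14A1, PRR5, STXBP6, KRT74, ODAD4 or ENSG00000258052.

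Gene groups were set beside the 1.59% of all protein-coding genes that hosted a 3' end peak. The groups were chosen with earlier results of these data known, so their shares describe these lists and are no independent test. Among ribosomal protein genes, 10 of 82 (12.2%) did so. They included RPL13 (rank 43 of 3163) and RPL13A (rank 44 of 3163), both in CRLM1-OE replicate 2, and RPL36 (rank 194 of 2224) in antisense control replicate 2, with its midpoint 997 bp past the end. By list, 2 and 6 ribosomal protein genes were hosts in the CRLM1-OE lists, 1 and 0 in those of the empty control and 0 and 2 in those of the antisense control, so the group was led by a single library. Of 28 translation factor genes, 3 were hosts, namely EIF4A2, EIF1 (rank 664 of 3163) and EIF4G2 (rank 727 of 3163), and all were in CRLM1-OE. The CRLM1-OE lists held 92 and 108 of the 347 3' end peaks. Host genes as a whole had a median length of 18.5 kb against 27.5 kb for all protein-coding genes, with 15.05% on chromosome 19 against 7.37%. The part of gene length and density in these counts was not tested.

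Among p53 targets, 4 of 26 genes were hosts: GADD45B, FDXR (rank 182 of 4339), PMAIP1 (rank 1708 of 2224) and BBC3 (rank 3008 of 4339). BBC3, which encodes the apoptosis activator PUMA and is named in the study, was called only in CRLM1-OE replicate 1, in coding sequence 973 bp inside the end, near the edge of the zone and low in the list. The study displayed hnRNPK binding at BBC3 from the same ChIP-seq, so its place in the p53 count was favoured beforehand. Of 37 TGF-beta and BMP pathway genes, 3 were hosts: the target genes ID2 (rank 334 of 3163) and ID3 (rank 916 of 3163) in CRLM1-OE replicate 2, and SKI (rank 1904 of 2262) in antisense control replicate 1. Immediate-early genes gave 2 of 26, IER2 and JUND, and EGR1 had no 3' end peak in any list. Of 29 hnRNP genes, only HNRNPA1 was a host (rank 382 of 4339 in CRLM1-OE replicate 1), and HNRNPK itself was not. Zinc-finger genes, many of them on chromosome 19, gave 8 of 556 or 1.44%, close to all genes. No cleavage, polyadenylation or termination factor gene was a host (0 of 25, which allows a share of up to 12.0%). No replication-dependent histone gene was one either (0 of 70, up to 4.29%), and only 14 of these genes had an end without a gene start nearby.

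Of 12 genes selected from those named in the study, BBC3, HCFC1R1 and THOC6 hosted a 3' end peak. The study displayed hnRNPK binding from the same ChIP-seq at some of the 12, such as BBC3 and KLF6. A peak nearby was thus favoured beforehand, and the count cannot be weighed against the 1.59% of all protein-coding genes. HCFC1R1 and THOC6 are neighbours on chromosome 16, and the HCFC1R1 peak of CRLM1-OE replicate 2 also covered the THOC6 start. THOC6, a subunit of the mRNA export complex THO, ranked 179 of 4339 in CRLM1-OE replicate 1 with its midpoint 473 bp past the end. SMAD6, BMP7, SMURF2, KLF6, PLEKHG2, HNRNPK and PLPP3 had no peak midpoint within 1 kb of their ends in any list. ZFP36 and TNFRSF12A had one in 2 lists each, but these peaks lay within 1 kb of a gene 5' end or had a nearer end of another gene and were not counted for them.

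To determine whether hnRNPK was found at both ends of the same gene, the host of each 3' end peak was searched for a peak within 1 kb of its 5' end in the same list. This was so for 5 of 92 peaks (5.43%) in CRLM1-OE replicate 1 and 10 of 108 (9.26%) in replicate 2. In the controls it was so for 0 of 20 and 1 of 43 in the empty control and for 0 of 44 and 2 of 40 in the antisense control. The counts of 0 allow shares of up to 15% and 6.82%. Among all protein-coding genes, 1.46% and 2.14% had a start peak in the CRLM1-OE lists, 0.125% and 0.484% in the empty control lists, and 0.709% and 0.774% in the antisense control lists. The share was thus above that of all genes in 4 of 6 lists, by 2.72 points on average (SD 2.96; exact sign-flip permutation test, p = 0.125, adjusted p = 0.208). CRLM1-OE (mean 7.35%) was 5.52 points above the 4 control lists (1.83%), without overlap (exact permutation test, p = 0.133). Without CRLM1-OE replicate 2 that difference was 3.603 points.

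**Figure D5:**
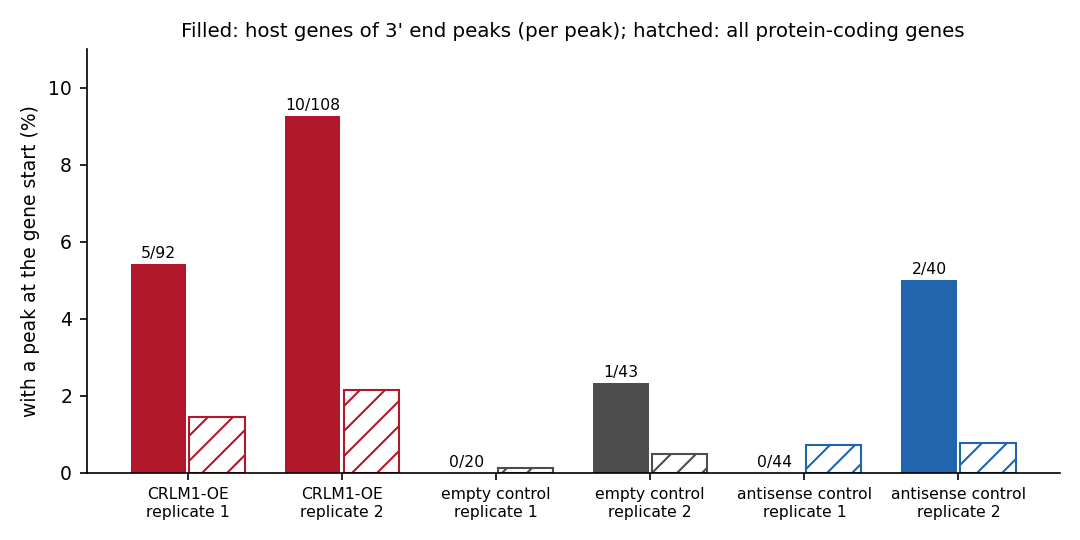
Share of 3' end peaks whose host gene also had a peak within 1 kb of its 5' end in the same list (filled bars, percent, with counts above) and share of all protein-coding genes with such a peak (hatched bars). The filled bars are highest in CRLM1-OE, with 5/92 and 10/108, and 0 in empty control replicate 1 and antisense control replicate 1.

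In CRLM1-OE the genes with peaks at both ends were mostly short. ATF4, 2.99 kb long, was the only one in both CRLM1-OE lists, with start peaks at rank 369 of 4339 and 159 of 3163. In replicate 1 the others were NDUFB10 and ELOB, subunit genes of respiratory complex I and of the elongin complex, THOC6 and GADD45B. The THOC6 start peak ranked 16 of 4339. In replicate 2 they were EIF4G2, EIF1, GPX4, TIMM50, CHMP2A, LUC7L3, CPNE7, CD68 and RNF225, and the CD68 start peak ranked 29 of 3163. The control genes were longer, with STXBP6 (241 kb) in empty control replicate 2 and PLXNB2 (32.7 kb) and FGF18 (38.0 kb) in antisense control replicate 2. Of the CRLM1-OE hosts under 10 kb, 5 of 30 and 6 of 44 had a start peak, so all such genes of replicate 1 were short. The share of all short genes with a start peak was not taken. The part of gene length in the comparison with all protein-coding genes was therefore not tested.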

How the data were processed

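hnRNPK ChIP-seq peak lists of 6 immunoprecipitated libraries were analysed; the 6 input libraries entered only through the peak calls. According to the methods, the authors used cutadapt for trimming, Bowtie2 for alignment to GRCh38 and MACS2 with a q-value cutoff for peak calling. That peaks were called for each library was read from the deposited lists, 1 per library. Deposited lists give coordinates and a score per peak, with no header and no normalization stated. No score was under 50, a floor that the stated cutoff does not explain, so the deposited score was used only as a rank within a list. Peak coordinates are as deposited, and depth is unknown.

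Midpoints were compared with 62663 gene records (20033 protein-coding) of GENCODE release 44 on hg38, which may differ from the authors' annotation. Peaks sharing 1 bp or more formed a merged region. Lists, not peaks, were the replicates. Groups were compared with exact permutation tests of list labels and the 6 lists with exact sign-flip tests, both two-sided by doubling the smaller tail, with Benjamini-Hochberg adjustment over 5 sign-flip tests. Shares carry 95% Wilson intervals. A count of 0 was given the limit of 3 counts. The genomic share at a list's GC content came from 500 bp tiles in strata of 2 percentage points. Named genes were hosts of merged regions called in more than 1 list, hosts of the 3 best-scoring 3' end peaks of each list, up to 4 hosts per gene list, genes with peaks at both ends and 12 genes selected from those the study names. Those with peaks at both ends, DGCR2 and EGR1 were named after their values were seen. The members and gene lists were chosen with earlier results of these data known. Assignment and tests were tested on simulated peaks. Python 3.11.15, numpy 2.4.6, pandas 2.3.3, scipy 1.17.1, statsmodels 0.14.6, biopython 1.88 and samtools 1.23.1 were used. Alternatives covered score filters, the zone, the annotated ends and left-out lists.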

Additional observations from a re-analysis of the deposited data

How the results depend on the processing

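The directions of the group differences in share and in start peaks held under each alternative tried, and the sign of the mean difference in GC content as well. The groups did not stay apart in each. With canonical transcript ends the share was 2.14% in CRLM1-OE replicate 1 and 2.17% in antisense control replicate 1. Start peaks overlapped too, with antisense control replicate 2 above CRLM1-OE replicate 1. The shares were 4.76% against 4.30% with canonical ends and 5% against 4.65% with a zone of 500 bp. They were 5.41% against 5.06% with no base of a peak near a gene 5' end. Leaving out 1 list at a time, CRLM1-OE minus empty control ranged from 0.678 to 1.97 points, CRLM1-OE minus antisense control from 0.248 to 1.54, CRLM1-OE minus all controls from 0.463 to 1.76, and antisense minus empty control from 0.222 to 0.637. The excess over the genomic share ranged from 0.610 to 1.05 points and the GC difference from 10.2 to 11.1, with exact permutation p = 0.0625 for each, the smallest that 5 lists can give. The excess over the genomic share had p = 0.0625 in the exact permutation test with a zone of 2 kb (1.76 points) and, chosen after seeing the data, with no base of a peak near a gene 5' end (0.716 points). The cause was not tested. The share past the gene end, relative to the genome, changed sign with canonical transcript ends (-0.105 points), with 5' ends of protein-coding genes alone kept out (-1.25) and, chosen after seeing the data, without the GH1 end (-0.212), and ranged from -0.531 to 2.58 when 1 list was left out. The difference of C and G changed sign with 5' ends of protein-coding genes alone kept out (-0.0642) and ranged from -0.0905 to 0.583. With the replicate block, the paired differences in share were the same 1.33, 0.896 and 0.430 points, with exact permutation p = 0.5. The deviations of same-numbered lists had correlations of 0.0054, -0.00067 and -0.00255 over 15464 regions. Only 2.92% of these regions were called in 2 or more lists, so the correlations cannot tell whether the numbers pair the libraries. Without read counts, differences in depth between libraries could not be corrected.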
